A study of Homo sapiens with 12 samples.

Results

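The comparison of D20+ TGF-β with D1+ TGF-β follows cells kept with TGF-β from the early to the late state of treatment. It rests on 6 of the 12 RNA sequencing libraries of the series, the 3 titled for day 20 with TGF-β and the 3 titled for day 1 with TGF-β, chosen by their titles. The cells were WI-38, a line of normal human lung fibroblasts, and all groups share that line, with no allele or other agent added. D1+ TGF-β flasks were treated at confluence and harvested 1 day later, at passages 2 to 3, and D20+ TGF-β flasks were harvested after 20 days with TGF-β, at passages 5 to 6. D1 and D20 flasks were kept in the same way without TGF-β, and their comparison (D20 vs D1) gives the changes over the same days without TGF-β. The D20+ TGF-β flasks were all seeded from 1 treated flask and the D20 flasks from 1 untreated flask, so that p-values measure the spread between flasks with a common parent. D1 flasks were confluent, while D20 flasks were seeded to be close to confluence at harvest, and day, passage and time since seeding cannot be told apart. RNA was taken from whole flasks, so fewer cells of a type and less RNA per cell cannot be told apart.

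TGF-β is a secreted cytokine that signals through paired serine/threonine kinase receptors to SMAD transcription factors. In lung fibroblasts it is known for driving the change to a myofibroblast, a cell with actin stress fibres, α-smooth muscle actin and a strong output of extracellular matrix. It also raises inhibitors of its own pathway and arrests the growth of many cell types.

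Depth was between 8674488 and 18286197 counts per library, and levels are given as cpm, read counts scaled by edgeR to a common library total with its composition factor. The 9490 genes that reached 10 cpm in 6 libraries or more were tested in edgeR's quasi-likelihood test, and those with an adjusted p under 0.01 are referred to as called. Fold changes are log2 values of D20+ TGF-β over D1+ TGF-β unless stated, with their standard errors (SE). With 3 flasks against 3, the lowest p of an exact permutation test is 0.1, and it was therefore not applied to single genes. All 10 fibroblast markers were detected in every library, VIM and COL1A1 with at least 29934 counts in each. Of markers of other cells, KRT5, KRT14, NKX2-1 (epithelial), CDH5 (endothelial), CD3E, LYZ (immune), WT1 (mesothelial), ADIPOQ, LPL (fat) and COL9A1 (cartilage) had 0 counts in all 12 libraries, and EPCAM, CDH1, SFTPC, SCGB1A1, PECAM1, PTPRC, MSLN, PLIN1, ACAN and COL2A1 had at most 7 counts in a library. KDR and VWF had at most 25 counts, and CD14 reached 103 counts in a library. MYH11 and DES, which mark mature smooth muscle, stayed under 1 cpm on average in every group. Others on these lists were detected in all libraries. The endothelial marker TEK had early and late treated means of 36.9 ± 3.24 and 121 ± 39.7 cpm (SD, n = 3), the mesothelial marker CALB2 5.01 ± 0.332 and 10.1 ± 0.384 cpm and the pericyte marker RGS5 24.4 ± 3.33 and 67.1 ± 41.1 cpm, all called higher. The fat cell marker FABP4 had 2.91 ± 0.669 and 0.876 ± 0.406 cpm, the cartilage marker SOX9 87.8 ± 7.56 and 68.3 ± 5.10 cpm and the pericyte marker CSPG4 193 ± 16.9 and 115 ± 25.3 cpm, all called lower, while the immune marker CD68 was not called (0.11, adjusted p = 0.382). CALB2 and FABP4 were called under edgeR's looser filter for genes of low level. The part of these markers in the results was not tested. Of the late treated libraries, replicate 3 was set off from the other two. On the first principal component, which held 59.7% of the variance, it lay at −4.64 against 9.86 and 12.6, on the side of the D1+ TGF-β libraries at −33.2, −33.2 and −30.6. Among the untreated libraries D1 replicate 2 deviated most from its group, with a root mean square of 0.21 on the log2 scale against 0.16 and 0.15 in D1 replicates 1 and 3. Counts of list members between D1+ TGF-β and D20+ TGF-β that change by over 1.5 times without a library are given without it as well. List counts for D20 vs D1, and for the difference between both time courses, were not recounted in this way.

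With TGF-β 3307 genes were called between day 1 and day 20, 34.8% of those tested, of which 1630 were higher (17.2%) and 1677 lower (17.7%). The median change over all genes was 0.01. With no composition factor the split was 1907 higher and 1480 lower, with a median of 0.05. The shares of 17.2% and 17.7% are the background of the counts of list members given for this comparison. Changes past a log2 fold change of 1 were called for 502 genes (5.29%), 274 higher (2.89%) and 228 lower (2.4%), and without D20+ TGF-β replicate 3 there were 660. The libraries of the pair of groups did not overlap for 5998 genes, 63.2% of those tested. Of 4278 genes of lower level that pass edgeR's looser filter 637 were called higher (14.9%) and 271 lower (6.33%). Genes named hereafter are the 10 with the largest called rise and 9 of the 10 with the largest called fall, up to 2 called members with the smallest p of each of 50 gene lists, and the genes whose time courses differed most with and without TGF-β, and any others were chosen after their values were seen.

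PDGFD, a ligand of the platelet-derived growth factor receptor, had the largest rise among the genes tested at 10 cpm in 6 libraries (chr11:103777917-104035107, minus strand, GRCh37). It was at 0.591, 0.851 and 0.948 cpm at D1+ TGF-β and 16.3, 19.4 and 10.7 cpm at D20+ TGF-β, with a log2 fold change of 4.24, SE 0.28, adjusted p = 4.74e-07. Without TGF-β it was at 2.58, 2.66 and 1.70 cpm at D1 and 19.9, 19.8 and 23.6 cpm at D20, so that the lowest levels of the 4 groups were those of D1+ TGF-β. RASL12, a small GTPase of the Ras family, was at 0.946, 0.964 and 0.948 cpm at D1+ TGF-β and 13.8, 14.5 and 11.2 cpm at D20+ TGF-β (3.77, SE 0.32, adjusted p = 2.36e-06). ADAMTS9 and ADAMTS5, secreted proteases that cut proteoglycans, rose as well. ADAMTS9 was at 0.946, 1.13 and 1.78 cpm at D1+ TGF-β and 21.4, 21.5 and 5.83 cpm at D20+ TGF-β (3.71, SE 0.50, adjusted p = 6.05e-05). ADAMTS5 was at 3.66, 5.16 and 3.20 cpm at D1+ TGF-β and 63.4, 69.5 and 26.2 cpm at D20+ TGF-β (3.65, SE 0.39, adjusted p = 1.08e-05). In each of them replicate 3 had the lowest of the D20+ TGF-β values, and without it the log2 fold changes were 4.09 and 3.97. CCL2, a chemokine that attracts monocytes, was at 4.02, 4.48 and 3.91 cpm at D1+ TGF-β and 64.8, 35.8 and 5.16 cpm at D20+ TGF-β (3.10, SE 0.66, adjusted p = 0.00175), and replicate 3 was close to the D1+ TGF-β range (3.60 without it). Its call was lost without D1+ TGF-β replicate 2, without D20+ TGF-β replicate 1 and in limma-voom, with adjusted p up to 0.0243. The other rises among the 10 were those of FAM43A (3.04), of ALDH1A3, which makes retinoic acid (2.98), of the secreted matrix protein gene MXRA5 (2.93), of ARHGAP28, which inactivates small GTPases (2.82), and of SLC40A1, the iron exporter ferroportin (2.78). From D1 to D20 without TGF-β all of the 10 but CCL2 were called higher as well, ADAMTS5 by 3.03 and ADAMTS9 by 2.68. The difference of both time courses was called for RASL12, FAM43A, ALDH1A3 and MXRA5, each with the larger rise under TGF-β. PDGFD, RASL12 and ALDH1A3 reached 10 cpm in day 20 libraries only. ADAMTS9, ADAMTS5 and CCL2 reached it at day 20 and in D1 replicate 2, but in no D1+ TGF-β library. All of these thus passed the filter through the later day, with or without TGF-β, and could enter the ranking only as rises. Exons of ALDH1A3 share 32.1% of their length with a transcript on the other strand, and the use of strand in counting is not given in the sources used here.

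The largest fall among the same genes was that of RGS4, a regulator that shortens signalling by G proteins (chr1:163038565-163046592, plus strand, GRCh37), at 87.8, 102 and 85.6 cpm at D1+ TGF-β and 9.20, 7.50 and 11.1 cpm at D20+ TGF-β (−3.31, SE 0.21, adjusted p = 2.65e-07). SEMA7A, a membrane-bound semaphorin, was at 199, 203 and 178 cpm at D1+ TGF-β and 25.7, 28.2 and 42.9 cpm at D20+ TGF-β (−2.60, SE 0.15, adjusted p = 1.89e-07). ADAM12, a metalloprotease of the cell surface, was at 79.1, 85.8 and 67.7 cpm at D1+ TGF-β and 19.1, 18.2 and 12.05 cpm at D20+ TGF-β (−2.23, SE 0.19, adjusted p = 2.13e-06), against 17.8, 17.2 and 18.4 cpm at D20. A2M, a protease inhibitor of plasma and tissue fluid, was at 95.97, 120.1 and 118 cpm at D1+ TGF-β and 22.2, 26.3 and 10.1 cpm at D20+ TGF-β (−2.50, SE 0.31, adjusted p = 3.08e-05). No overlap of the groups was part of the rule for these genes, and it held for 63.2% of all genes tested. Other falls were those of PODXL, a sialomucin (−2.52), TRIM55, a protein of the muscle sarcomere (−2.38), HBEGF, a ligand of the EGF receptor (−2.35), LZTS1 (−2.31) and BRIP1, a DNA helicase that binds BRCA1 (−2.27). Without TGF-β RGS4 fell too, from 47.3, 85.7 and 61.02 cpm at D1 to 12.03, 8.73 and 10.2 cpm at D20 (−2.66). Its difference of the time courses was not called (adjusted p = 0.13). SEMA7A, PODXL, TRIM55, HBEGF and BRIP1 also fell without TGF-β, A2M rose, and ADAM12 and LZTS1 were not called. PODXL, TRIM55 and HBEGF reached 10 cpm in day 1 libraries only. They thus passed the filter through the earlier day and could enter the ranking only as falls.

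**Figure D1:**
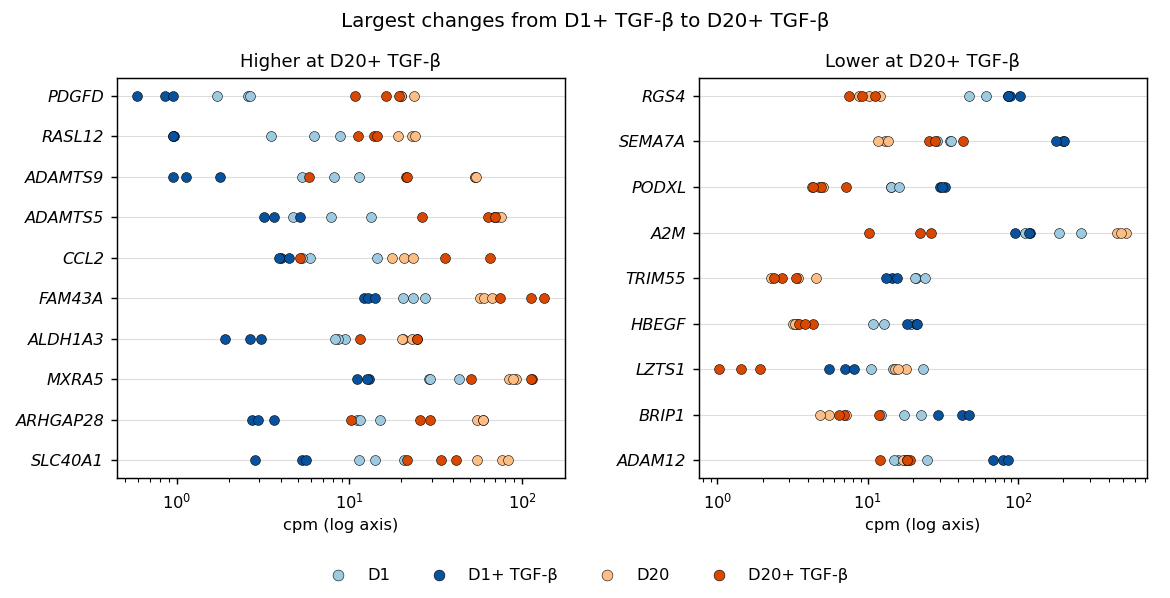
The 10 genes with the largest called rise and 9 of the 10 with the largest called fall, with cpm of each library on a log axis as points in the colour of its group (3 libraries per group). At D20+ TGF-β the genes of the left panel lie above, and those of the right panel under, the D1+ TGF-β points, as for RGS4 (91.8 ± 8.99 and 9.26 ± 1.80 cpm, SD).

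Genes of the smooth muscle contractile apparatus, which bundle actin, bind tropomyosin or form the actin filaments of stress fibres, fell from the early to the late state. Of 28 list members 25 passed the filter, and 19 of them were called lower and 0 higher, beside 17.7% and 17.2% of all genes tested. Without D20+ TGF-β replicate 3 there were 20 and 1. The median change was −0.70 against 0.01 over all genes. The gene with the smallest p was TPM1, a tropomyosin that runs along the actin filament (chr15:63334819-63364114, plus strand, GRCh37), at 1663, 1731 and 1436 cpm at D1+ TGF-β and 437, 430.1 and 503 cpm at D20+ TGF-β (−1.82, SE 0.09, adjusted p = 6.36e-08). ACTA2, which encodes α-smooth muscle actin, was at 761, 850.2 and 692 cpm at D1+ TGF-β and 285, 302 and 357 cpm at D20+ TGF-β (−1.29, SE 0.17, adjusted p = 4.41e-05). In both genes each D20+ TGF-β library was below each D1+ TGF-β library and close to the D20 libraries, at 497, 531 and 533 cpm for TPM1 and 277, 288 and 297 cpm for ACTA2. At day 20, with TGF-β against without it, a comparison that shares libraries with the main one, the log2 fold change of ACTA2 was 0.13 (adjusted p = 0.554) and that of TPM1 −0.19 (adjusted p = 0.112). At day 1 the same genes had log2 fold changes of 2.07 (adjusted p = 2.28e-06) and 2.14 (adjusted p = 8.73e-09). Exons of ACTA2 share up to 29.1% of their length with genes of the other strand, FAS and ACTA2-AS1, and those of TPM1 18.0%. CSRP1, a LIM protein of actin bundles, was at 532, 571 and 482 cpm at D1+ TGF-β and 239, 242 and 238 cpm at D20+ TGF-β (−1.14, SE 0.07, adjusted p = 3.51e-07). CNN1 (−1.15), ACTG2 (−0.96), ACTN1 (−0.93), CALD1 (−0.76), TAGLN (−0.70), MYL9 (−0.69) and SRF (−0.63) fell too, SRF being the transcription factor that binds the CArG box of such genes. TPM2 (−0.25, adjusted p = 0.0375), MYLK (0.28, adjusted p = 0.131) and FHL1 (0.13, adjusted p = 0.441) were not called. Without TGF-β the same list had 11 members called higher and 1 lower from D1 to D20, with a median of 0.29, beside 18.9% and 17.6% of all genes. The difference of both time courses was called for 19 of the 25 members, each with the more negative change under TGF-β, against 5.87% of all genes in that direction. The geometric mean of the 25 members was 308, 321 and 308 cpm at D1+ TGF-β and 183, 189.7 and 208 cpm at D20+ TGF-β, with 228, 196 and 222 cpm at D1 and 265, 272 and 273 cpm at D20.

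The CArG box was searched on both strands in RefSeq promoters (GRCh38.p14, 250 bases before to 50 after the gene start) and was found in 6 of the 23 contractile members with a promoter (26.1%), against 1.29% of all 27305 promoters. ACTG2 and SRF are shown, since both fell and hold 2 matches each, marked by capitals.
ACTG2 promoter, chr2:73892758-73893057, plus strand: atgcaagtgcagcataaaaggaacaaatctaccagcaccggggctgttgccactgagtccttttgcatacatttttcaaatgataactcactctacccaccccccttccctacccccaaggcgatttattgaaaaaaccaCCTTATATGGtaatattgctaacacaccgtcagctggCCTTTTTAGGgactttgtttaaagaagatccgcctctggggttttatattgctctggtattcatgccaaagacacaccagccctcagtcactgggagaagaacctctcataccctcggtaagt
SRF promoter, chr6:43171019-43171318, plus strand: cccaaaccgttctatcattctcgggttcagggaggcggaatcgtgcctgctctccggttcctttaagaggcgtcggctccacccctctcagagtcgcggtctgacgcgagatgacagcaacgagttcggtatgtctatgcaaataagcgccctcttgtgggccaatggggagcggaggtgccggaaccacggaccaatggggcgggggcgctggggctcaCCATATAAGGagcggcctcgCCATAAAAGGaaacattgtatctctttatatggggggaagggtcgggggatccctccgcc
Between both days ACTG2 went from 439, 456 and 434 cpm to 211, 211 and 261 cpm, and SRF from 63.7, 69.4 and 71.8 cpm to 46.2, 43.7 and 42.3 cpm, with no overlap of libraries in either gene. A match is a description of the sequence only.

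Focal adhesion genes, whose products tie integrins to actin, fell for the most part as well. Of 30 members tested 18 fell and 1 rose, TNS2 (0.92), with a median of −0.45. Without D1 replicate 1 there were 2 rises. VASP, which promotes actin filament growth, was at 139.7, 151 and 141 cpm at D1+ TGF-β and 69.1, 67.5 and 75.9 cpm at D20+ TGF-β (−1.03, SE 0.08, adjusted p = 9.52e-07). PDLIM5, a LIM protein of the Z-line and of stress fibres, was at 179, 184 and 161 cpm at D1+ TGF-β and 66.8, 63.9 and 86.1 cpm at D20+ TGF-β (−1.28, SE 0.10, adjusted p = 1.74e-06). FLNC (−1.25), ZYX (−0.95), PXN (−0.85), TLN1 (−0.49) and VCL (−0.49) fell as well, and PTK2, focal adhesion kinase, fell by the least among the 18 (−0.26). Without TGF-β 7 members rose and 2 fell from D1 to D20, with a median of 0.06, and the difference of the time courses was called lower under TGF-β for 13. Of 13 integrin subunits 5 fell, ITGB3, ITGA3, ITGA5, ITGA7 and ITGB1, and 2 rose, ITGA11 (1.02), a collagen receptor subunit, and ITGB8 (2.21), which can activate latent TGF-β. The 5 falls were 3 without D1+ TGF-β replicate 1 or 2 or D20+ TGF-β replicate 1 or 2 and 8 without D1 replicate 2. ITGA5, the fibronectin receptor subunit, was at 446, 430.1 and 488 cpm at D1+ TGF-β and 275, 280.1 and 273 cpm at D20+ TGF-β (−0.72, SE 0.08, adjusted p = 1.32e-05). Of 24 genes of the YAP and TEAD pathway 7 fell and 0 rose (4 without D20+ TGF-β replicate 1 or 2 for the falls, and 1 without D1 replicate 1 and 2 without D1 replicate 2 for the rises), the targets CTGF (−1.27) and CYR61 (−0.86) and the upstream regulator NF2 (−0.92) among them, while YAP1 itself was at 0.02, adjusted p = 0.908. CYR61, which encodes a matricellular protein, was at 445, 457 and 345 cpm at D1+ TGF-β and 241, 219.6 and 226 cpm at D20+ TGF-β, the late values lying close to the D20 libraries (230.3, 234 and 255 cpm).

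Among early targets and feedback inhibitors of TGF-β, 17 of 20 members were tested, of which 6 fell and 3 rose, with a median of −0.28, and the 6 falls were 3 without D1+ TGF-β replicate 2 or 3 or D20+ TGF-β replicate 2. SMURF2, a ubiquitin ligase that removes TGF-β receptors and SMADs, was at 618, 638 and 595 cpm at D1+ TGF-β and 229, 225 and 300.5 cpm at D20+ TGF-β (−1.30, SE 0.11, adjusted p = 1.74e-06), below its D20 values of 519, 498 and 502 cpm. CTGF, a matricellular growth factor gene, was at 652, 673 and 661 cpm at D1+ TGF-β and 267, 280.3 and 276 cpm at D20+ TGF-β (−1.27, SE 0.21, adjusted p = 2.57e-04). The 3 rises were those of the CDK inhibitors CDKN2B (0.97, adjusted p = 1.39e-04) and CDKN1A (0.66, adjusted p = 1.36e-04) and of the repressor TGIF1 (0.56, adjusted p = 0.00102). The inhibitory SMAD gene SMAD7 was at 13.1, 14.7 and 14.5 cpm at D1+ TGF-β and 13.6, 10.99 and 8.03 cpm at D20+ TGF-β, the groups overlapped, and it was not called (−0.36, SE 0.30, adjusted p = 0.342). SMAD3, a mediator of the signal, was at 116, 117 and 136 cpm at D1+ TGF-β and 161, 157 and 98.2 cpm at D20+ TGF-β and not called (0.18, SE 0.17, adjusted p = 0.388), against 482, 505 and 505 cpm at D20. Of 14 ligands, receptors, latency proteins and SMADs 3 rose and 1 fell. The rises were 5 without D20+ TGF-β replicate 3 and the falls 2 without D1 replicate 2 or 3. ACVRL1, a type I receptor of the family, was at 6.15, 7.49 and 8.18 cpm at D1+ TGF-β and 32.2, 28.8 and 19.9 cpm at D20+ TGF-β (1.89, SE 0.20, adjusted p = 8.41e-06), and LTBP4, which holds latent TGF-β in the matrix, was at 73.8, 72.9 and 75.6 cpm at D1+ TGF-β and 171, 184 and 142 cpm at D20+ TGF-β (1.16, SE 0.17, adjusted p = 8.77e-05). The co-receptor gene TGFBR3 rose (0.59) and ENG, another co-receptor gene, fell (−0.49). Of 16 BMP and activin genes 3 rose, BMP4 (2.01, adjusted p = 2.69e-05), SMAD1 (0.99, adjusted p = 4.05e-04) and ID2 (0.93, adjusted p = 0.00766), and 1 fell, FSTL3, which binds activin (−0.96, adjusted p = 3.37e-05). Without D1 replicate 2 there were 5 rises and 2 falls. BMP4 was at 6.50, 8.28 and 7.11 cpm at D1+ TGF-β and 32.9, 39.2 and 17.5 cpm at D20+ TGF-β, and without TGF-β at 14.6, 12.4 and 11.7 cpm at D1 and 109, 127 and 136 cpm at D20.

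Matrix genes changed in both directions, and the matricellular proteins were the only matrix list in which most members were called. COL1A1 and COL1A2, the chains of type I collagen, were not called (0.18, adjusted p = 0.219 and 0.35, adjusted p = 0.0208). COL1A1 was at 6406, 6505 and 6827 cpm at D1+ TGF-β and 7305, 8184 and 6866 cpm at D20+ TGF-β, both groups above its D20 values of 3582, 3752 and 3952 cpm. Of 7 fibrillar collagens 2 rose, and 4 without D20+ TGF-β replicate 3. COL3A1, the chain of type III collagen, was at 472, 463 and 518 cpm at D1+ TGF-β and 1354, 1498 and 728 cpm at D20+ TGF-β (1.30, SE 0.20, adjusted p = 1.76e-04), and COL11A1 was at 30.4, 29.04 and 27.7 cpm at D1+ TGF-β and 39.5, 48.2 and 43.2 cpm at D20+ TGF-β (0.58, SE 0.11, adjusted p = 8.59e-04). Of 22 enzymes that modify, fold or cross-link collagen 2 rose, PCOLCE (0.66, adjusted p = 3.79e-05) and CRTAP (0.45, adjusted p = 1.40e-04), and 2 fell, COLGALT1 (−0.47) and PLOD2 (−0.47), the falls being 0 without D1+ TGF-β replicate 3, 1 without D1 replicate 3 or D1+ TGF-β replicate 1 or 2 or D20 replicate 1, 2 or 3 or D20+ TGF-β replicate 2 or 3 and 4 without D1 replicate 2. Without TGF-β 8 of these enzymes rose and 0 fell, and the difference of the time courses was called lower under TGF-β for 8 and higher for 1. Of 26 basement membrane proteins and other collagens 7 rose and 2 fell, the falls being 0 without D1+ TGF-β replicate 1 or 2 or D20+ TGF-β replicate 1 and 1 without D1+ TGF-β replicate 3 or D20+ TGF-β replicate 3. COL15A1, a collagen next to basement membranes, was at 12.4, 11.5 and 10.7 cpm at D1+ TGF-β and 34.1, 42.1 and 43.4 cpm at D20+ TGF-β (1.79, SE 0.18, adjusted p = 8.18e-06), while without TGF-β it was at 9.45, 14.9 and 8.09 cpm at D1 and 8.83, 8.27 and 6.73 cpm at D20. LAMA2, a laminin chain, was at 15.8, 14.5 and 16.5 cpm at D1+ TGF-β and 57.2, 62.9 and 46.8 cpm at D20+ TGF-β (1.85, SE 0.13, adjusted p = 6.51e-07), and COL14A1, which binds collagen fibrils, was at 2.84, 3.29 and 2.37 cpm at D1+ TGF-β and 18.3, 17.9 and 13.4 cpm at D20+ TGF-β (2.50, SE 0.25, adjusted p = 7.35e-06). COL14A1 reached 10 cpm in day 20 libraries only, so that it could enter the test only as a rise. Of 13 elastic fibre genes at 10 cpm in 6 libraries 4 rose and 0 fell, with 1 fall without D1 replicate 1, whereas ELN, elastin, which did not reach that level in as many libraries, was called lower under the looser filter (−3.16). Of the 13, FBN2 (1.53, adjusted p = 5.88e-07) and MFAP4 (1.90, adjusted p = 9.02e-06), both of microfibrils, had the smallest p, while FN1, fibronectin, was not called (0.21, adjusted p = 0.195). From D1 to D20 without TGF-β 5 of the 7 fibrillar collagens rose and 0 fell. Among basement membrane genes and other collagens 10 rose and 1 fell, and among elastic fibre genes 7 rose and 0 fell. COL3A1 (1.74), COL14A1 (2.15) and FBN2 (1.47) were among these rises, and their difference of the time courses was not called. It was called higher under TGF-β for 0, 2 and 0 members of these lists and lower for 1, 2 and 1.

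Of 14 matricellular genes 8 rose and 4 fell. POSTN, which encodes periostin and was chosen after its values were seen, was at 485, 513 and 396 cpm at D1+ TGF-β and 2227, 2439.6 and 2826 cpm at D20+ TGF-β (2.43, SE 0.23, adjusted p = 4.12e-06), the D20+ TGF-β values being the highest of the 4 groups, with 275, 241 and 236 cpm at D20. SPOCK1, a secreted proteoglycan gene, was at 77.9, 82.97 and 78.1 cpm at D1+ TGF-β and 235, 243 and 209 cpm at D20+ TGF-β (1.52, SE 0.09, adjusted p = 1.69e-07), against 20.7, 20.9 and 21.4 cpm at D20. The falls were those of CTGF, TNC (−1.13), CYR61 and SPARC (−0.60). Of 14 proteoglycan genes 4 rose and 3 fell, and without TGF-β 7 rose and 3 fell, LUM (2.44) among the rises. LUM, the collagen-binding lumican, was at 67.02, 63.3 and 66.7 cpm at D1+ TGF-β and 359, 365 and 179 cpm at D20+ TGF-β (2.20, SE 0.28, adjusted p = 4.02e-05), and DCN, decorin, rose by a log2 fold change of 1.13. XYLT1, which starts the sugar chains of proteoglycans, was at 426, 428 and 390.3 cpm at D1+ TGF-β and 86.1, 87.8 and 115 cpm at D20+ TGF-β (−2.11, SE 0.12, adjusted p = 1.46e-07), the early values being the highest of the 4 groups.

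Of 13 matrix metalloproteinases and their inhibitors 4 rose and 1 fell, the inhibitor TIMP3 (−0.83). MMP1, interstitial collagenase (chr11:102660132-102668891, minus strand, GRCh37), was at 447, 457 and 429 cpm at D1+ TGF-β and 1213, 935 and 1536 cpm at D20+ TGF-β (1.47, SE 0.22, adjusted p = 1.26e-04). Without TGF-β it moved the other way, from 431, 801 and 573 cpm at D1 to 286, 223 and 182 cpm at D20 (−1.39, SE 0.22, adjusted p = 1.60e-04), and the difference of the time courses was 2.85, SE 0.31, adjusted p = 5.37e-05. MMP2, gelatinase A, was at 2138, 2144 and 2223 cpm at D1+ TGF-β and 3902, 4061 and 3394 cpm at D20+ TGF-β (0.80, SE 0.11, adjusted p = 6.35e-05), and MMP14, which activates it, rose (0.40). Of 9 ADAMTS genes 3 rose, ADAMTS9, ADAMTS5 and ADAMTSL4 (0.57), and 0 fell, with 1 fall without D20+ TGF-β replicate 3. Without TGF-β 8 of the 9 rose and 1 fell. Of 8 plasminogen activator genes 3 fell, PLAUR (−1.08, adjusted p = 2.63e-06) and ANXA2 (−0.78) among them, and 1 rose, PLAT, the tissue plasminogen activator (1.87), which was not called without D1+ TGF-β replicate 1, 2 or 3 or D20+ TGF-β replicate 1 or 2. PLAUR, the urokinase receptor, was at 99.6, 98.001 and 99.3 cpm at D1+ TGF-β and 45.7, 41.3 and 53.1 cpm at D20+ TGF-β.

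**Figure D2:**
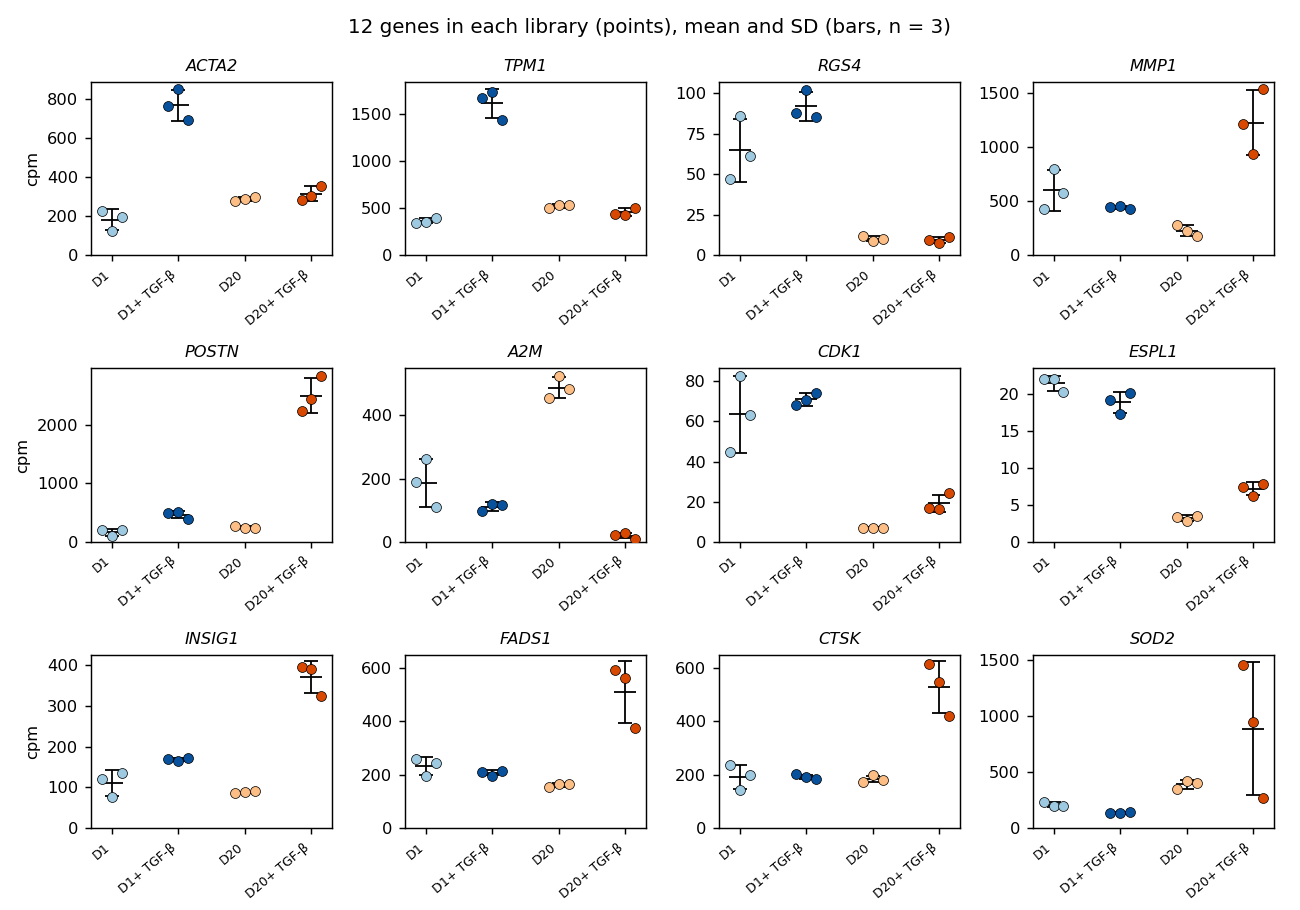
Level in cpm of 12 genes in each of the 12 libraries (points, in the order of replicates 1 to 3), with mean and SD as bars (n = 3 per group) on linear axes from 0. ACTA2, TPM1 and RGS4 were highest at D1+ TGF-β, POSTN and MMP1 at D20+ TGF-β, CDK1 and ESPL1 were lower at D20+ TGF-β than at D1+ TGF-β and lowest at D20, and SOD2 at D20+ TGF-β spread from 268 cpm in replicate 3 to 1451 cpm in replicate 1.

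Genes of DNA replication and of mitosis fell together between day 1 and day 20 of TGF-β. Of 37 replication genes tested 35 fell and 0 rose, with a median of −1.03, and LIG1 (−0.51, adjusted p = 0.0111) and DUT (0.13, adjusted p = 0.381) were not called. Of 63 mitosis genes 59 fell, with a median of −1.24, and 1 rose, CDC25B, a phosphatase that activates CDK1 (0.91, adjusted p = 1.49e-05). FEN1, the flap endonuclease of lagging strand synthesis, was at 58.5, 60.9 and 56.8 cpm at D1+ TGF-β and 23.4, 21.8 and 27.7 cpm at D20+ TGF-β (−1.28, SE 0.09, adjusted p = 7.41e-07), and POLA2, a subunit of DNA polymerase α, was at 34.7, 30.6 and 28.6 cpm at D1+ TGF-β and 13.4, 13.2 and 14.8 cpm at D20+ TGF-β (−1.18, SE 0.10, adjusted p = 1.96e-06). ESPL1, the separase that frees sister chromatids, was at 19.3, 17.3 and 20.1 cpm at D1+ TGF-β and 7.49, 6.16 and 7.84 cpm at D20+ TGF-β (−1.38, SE 0.12, adjusted p = 2.17e-06). CDC25A, a phosphatase that activates cyclin-dependent kinases, was at 13.8, 14.7 and 15.2 cpm at D1+ TGF-β and 4.17, 3.29 and 5.64 cpm at D20+ TGF-β (−1.74, SE 0.15, adjusted p = 2.36e-06). CDK1, the kinase of entry into mitosis, was at 67.96, 70.9 and 74.2 cpm at D1+ TGF-β and 16.9, 16.2 and 24.2 cpm at D20+ TGF-β, and MKI67, the antigen Ki-67 of cycling cells, at 203, 172 and 196 cpm at D1+ TGF-β and 54.1, 53.6 and 110.2 cpm at D20+ TGF-β (−1.39, SE 0.24, adjusted p = 3.33e-04). In these genes D20+ TGF-β did not overlap D1+ TGF-β, and replicate 3 was the highest of the late libraries in CDK1 and MKI67. The geometric mean of the 63 mitosis genes was 19.1, 17.6 and 28.8 cpm in replicates 1, 2 and 3 of D20+ TGF-β, against 51.1, 48.1 and 50.9 cpm at D1+ TGF-β. Without replicate 3 of D20+ TGF-β 60 mitosis genes and 36 replication genes were called lower. Without TGF-β the fall was deeper for mitosis genes, where 62 of 63 fell with a median of −2.67, and the difference of the time courses was called higher under TGF-β for 44 of them and lower for 0, beside 4.51% and 5.87% of all genes. For the replication genes, 37 of 37 fell without TGF-β, with a median of −1.55, and the difference was called for 3, MCM2, MCM7 and TYMS. The D20 libraries had geometric means of 10.4, 8.49 and 8.40 cpm for the mitosis genes, lower than each D20+ TGF-β library. Of 27 DNA repair genes 19 fell, EXO1 (−2.20, adjusted p = 6.95e-06) and FANCA (−1.43, adjusted p = 1.33e-05) with the smallest p, and 1 rose, CHEK2 (0.57), a call that was lost without D1+ TGF-β replicate 2 or 3 or D20+ TGF-β replicate 1 or 2. ESPL1, CDC25A, EXO1 and FANCA reached 10 cpm in day 1 libraries only, so that they could enter the test only as falls. How many other members of these lists did so was not counted, and the counts of falls carry that limit.

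Of 27 cyclins, CDKs, their inhibitors and RB family genes 9 fell and 7 rose, the falls being 5 without D1+ TGF-β replicate 2 or D20+ TGF-β replicate 1. Among the rises were those of the growth inhibitors CDKN1A, CDKN1B (0.51), CDKN2B, the pocket protein gene RBL2 (0.77, adjusted p = 8.72e-06) and CCNG2, an atypical cyclin of resting cells (1.45, adjusted p = 4.15e-06), together with the ubiquitin ligase gene MDM2 (0.24). CCNG2 was at 32.7, 32.5 and 30.9 cpm at D1+ TGF-β and 83.2, 93.9 and 85.8 cpm at D20+ TGF-β, and without TGF-β at 31.96, 45.7 and 31.3 cpm at D1 and 67.7, 85.8 and 86.5 cpm at D20. E2F1 (−1.31), CCND1 (−0.81), LMNB1 (−1.17) and HMGA2 (−1.31) were among the falls.

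Promoters of these lists were searched for motifs known from cell cycle genes, namely the CCAAT box (its letters are those of its name), the CHR element, spelled TTTGAA, and an E2F site, spelled TTTCCCGC, each on both strands. The motifs named were picked from a longer set searched after their shares were seen, and the matches shown do not overlap each other. The CCAAT box stood in 74.1% and the CHR element in 72.2% of the 54 mitosis genes with a promoter, against 35.7% and 15.4% of all 27305 promoters and 36.9% and 9.58% of the 7838 promoters of genes tested. The CCAAT box was as frequent in lists of other kinds, with 78.9% of the 19 promoters of cholesterol genes, 67.5% of the 40 of endoplasmic reticulum genes and 65.2% of the 23 of contractile genes. The E2F site stood in 31.2% of the 32 replication genes with a promoter, against 1.66% of all and 2.86% of genes tested. ESPL1 and CDK1 from the mitosis list and CLSPN and CDT1 from the replication list are shown, all of which fell. Capitals mark the CCAAT box and the CHR element in the first pair and the E2F site alone in CLSPN and CDT1, where other motifs are not marked.
ESPL1 promoter, chr12:53268049-53268348, plus strand: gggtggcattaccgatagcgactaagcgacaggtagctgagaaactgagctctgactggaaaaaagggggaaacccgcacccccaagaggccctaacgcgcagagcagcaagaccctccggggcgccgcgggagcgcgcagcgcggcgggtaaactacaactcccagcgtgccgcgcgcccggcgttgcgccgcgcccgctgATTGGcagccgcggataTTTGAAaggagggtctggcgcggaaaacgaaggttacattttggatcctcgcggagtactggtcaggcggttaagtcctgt
CDK1 promoter, chr10:60778081-60778380, plus strand: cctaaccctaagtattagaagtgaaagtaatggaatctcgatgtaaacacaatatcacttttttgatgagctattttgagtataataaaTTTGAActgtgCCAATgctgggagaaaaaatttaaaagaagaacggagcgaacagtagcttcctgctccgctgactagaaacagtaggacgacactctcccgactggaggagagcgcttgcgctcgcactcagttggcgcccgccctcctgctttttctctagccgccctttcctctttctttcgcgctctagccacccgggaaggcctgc
CLSPN promoter, chr1:35769929-35770228, minus strand: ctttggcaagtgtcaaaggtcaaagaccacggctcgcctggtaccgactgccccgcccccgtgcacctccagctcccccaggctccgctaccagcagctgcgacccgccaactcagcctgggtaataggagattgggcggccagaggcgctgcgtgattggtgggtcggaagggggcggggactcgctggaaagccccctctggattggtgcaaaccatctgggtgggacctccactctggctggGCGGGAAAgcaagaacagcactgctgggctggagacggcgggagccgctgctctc
CDT1 promoter, chr16:88803539-88803838, plus strand: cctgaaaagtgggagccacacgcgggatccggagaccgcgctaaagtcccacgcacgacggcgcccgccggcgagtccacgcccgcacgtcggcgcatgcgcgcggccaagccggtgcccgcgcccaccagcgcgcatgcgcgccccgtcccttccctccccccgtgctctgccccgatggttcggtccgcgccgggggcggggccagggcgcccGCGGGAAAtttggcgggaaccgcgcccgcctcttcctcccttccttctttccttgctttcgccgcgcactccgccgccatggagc
CLSPN, claspin of the replication checkpoint, went from 52.7, 49.1 and 45.9 cpm to 9.66, 8.43 and 16.6 cpm (−2.10, SE 0.18, adjusted p = 2.36e-06), and CDT1, which loads the replicative helicase, from 14.8, 14.4 and 15.05 cpm to 5.89, 5.34 and 6.88 cpm (−1.28, SE 0.13, adjusted p = 7.31e-06). The windows are descriptions of sequence, and binding was not measured. A sterol element, CACCCCAC, stood in 1 of 19 promoters of the cholesterol genes below (5.26%), against 2.72% of all.

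Genes that build ribosomes and proteasomes fell with the cell cycle genes, while few genes of ribosomal proteins were called. Of 46 ribosome biogenesis genes 31 fell and 0 rose, with a median of −0.50, and without TGF-β 43 fell. NOP56, a protein of box C/D ribonucleoproteins, was at 117, 120.1 and 123 cpm at D1+ TGF-β and 71.8, 68.02 and 69.6 cpm at D20+ TGF-β (−0.78, SE 0.07, adjusted p = 2.73e-06), and DDX21, a nucleolar helicase, was at 217, 211 and 186 cpm at D1+ TGF-β and 112, 109.9 and 123 cpm at D20+ TGF-β (−0.83, SE 0.09, adjusted p = 9.12e-06). Of 33 proteasome subunits 22 fell and 0 rose, with a median of −0.37, and the count was 13 without D1+ TGF-β replicate 2 and 14 without D20+ TGF-β replicate 2. PSMD2, of the regulatory particle, was at 1001, 1018 and 991 cpm at D1+ TGF-β and 441, 420.3 and 553 cpm at D20+ TGF-β (−1.09, SE 0.10, adjusted p = 5.33e-06), and PSMD3, of the same particle, was at 169, 159 and 167 cpm at D1+ TGF-β and 106, 105 and 117 cpm at D20+ TGF-β (−0.59, SE 0.07, adjusted p = 1.59e-05). Without TGF-β 27 proteasome subunits fell, and the difference of the time courses was called for 0 of 33 in edgeR's test. Of 78 ribosomal protein genes 4 rose, less than the 17.2% of all genes, RPL41 (0.51, adjusted p = 3.19e-04) and RPL3 (0.44, adjusted p = 0.00214) with the smallest p, and the count was 1 without D1+ TGF-β replicate 2, 2 without D1+ TGF-β replicate 1 or 3 or D20+ TGF-β replicate 1 and 18 without D1 replicate 2. The ribosome biogenesis list had 1 rise without D1 replicate 1.

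Genes of cholesterol synthesis and uptake, many of them targets of the sterol-regulated SREBP factors, rose in part under TGF-β. Of 25 members tested 11 rose and 0 fell, with a median of 0.49, and the count was 5 without D1+ TGF-β replicate 2, 6 without D1+ TGF-β replicate 1 or D20+ TGF-β replicate 2 and 21 without D1 replicate 2. Without TGF-β 0 rose and 4 fell, with a median of −0.33, and the difference of the time courses was called higher under TGF-β for 8. INSIG1, which holds SREBP precursors in the endoplasmic reticulum, was at 169.6, 164 and 172 cpm at D1+ TGF-β and 395, 391 and 325 cpm at D20+ TGF-β (1.14, SE 0.16, adjusted p = 6.51e-05), and without TGF-β at 121, 75.3 and 135 cpm at D1 and 86.1, 87.4 and 89.96 cpm at D20. LSS, lanosterol synthase, was at 179, 164 and 182 cpm at D1+ TGF-β and 383, 389 and 380.1 cpm at D20+ TGF-β (1.14, SE 0.20, adjusted p = 5.08e-04). SREBF2, which encodes an SREBP factor, rose too (0.62, adjusted p = 0.00125). The geometric means of the 25 members at D20+ TGF-β, 138, 138 and 141 cpm, lay above all other libraries, and D1 replicate 2 was the lowest library at 57.6 cpm against 99.9 and 101 cpm in the other D1 libraries. Of 30 genes of fatty acid synthesis, uptake, storage and oxidation 10 rose and 4 fell. The rises were 5 without D1+ TGF-β replicate 1 or D20+ TGF-β replicate 2 and 6 without D1+ TGF-β replicate 2, and the falls 0 without D20+ TGF-β replicate 1 and 2 without D1+ TGF-β replicate 2 or D20+ TGF-β replicate 2. FADS1, a desaturase of polyunsaturated fatty acids, was at 211, 196 and 215 cpm at D1+ TGF-β and 591, 561 and 376 cpm at D20+ TGF-β (1.30, SE 0.15, adjusted p = 1.48e-05), and without TGF-β at 257, 193 and 243 cpm at D1 and 153, 163 and 165 cpm at D20. SREBF1, the SREBP gene of fatty acid synthesis (1.18, adjusted p = 6.51e-07), FASN, fatty acid synthase (0.69, adjusted p = 9.83e-04), and SCD, stearoyl-CoA desaturase (0.84, adjusted p = 0.00253), rose as well. Of 44 lysosomal genes 15 rose and 0 fell, with a median of 0.26, with 1 fall without D1 replicate 2 or 3, and 21 rose without D20+ TGF-β replicate 3. CTSK, cathepsin K, a collagen-degrading protease, was at 201, 191 and 185 cpm at D1+ TGF-β and 614, 549 and 421 cpm at D20+ TGF-β (1.46, SE 0.16, adjusted p = 1.15e-05), and without TGF-β at 235, 145 and 198 cpm at D1 and 174, 198 and 182 cpm at D20. CTSO, another cathepsin gene, was at 16.2, 17.2 and 14.8 cpm at D1+ TGF-β and 35.3, 39.2 and 30.98 cpm at D20+ TGF-β (1.12, SE 0.10, adjusted p = 2.36e-06).

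Of 13 inflammatory cytokine and NF-κB genes that passed the filter, of 34 listed, 10 rose and 0 fell, with a median of 1.34, and the rises were 4 without D1+ TGF-β replicate 2 and 6 without D20+ TGF-β replicate 1. SOD2, the mitochondrial superoxide dismutase, a target of NF-κB chosen after its values were seen, was at 131, 130.3 and 147 cpm at D1+ TGF-β and 1451, 943 and 268 cpm at D20+ TGF-β (2.71, SE 0.40, adjusted p = 1.19e-04, and 3.14 without D20+ TGF-β replicate 3). TNFAIP2 was at 24.9, 22.97 and 22.9 cpm at D1+ TGF-β and 94.7, 69.9 and 40.9 cpm at D20+ TGF-β (1.55, SE 0.22, adjusted p = 9.23e-05), and TSLP, a cytokine of epithelia and fibroblasts, at 8.51, 8.62 and 6.40 cpm at D1+ TGF-β and 18.5, 17.1 and 20.6 cpm at D20+ TGF-β (1.23, SE 0.16, adjusted p = 4.86e-05). NFKBIA, the inhibitor IκBα, rose (1.32, adjusted p = 0.00186), as did TNFAIP3 (1.91, adjusted p = 0.00404). The 13 genes had geometric means of 80.1, 59.7 and 28.5 cpm in replicates 1, 2 and 3 of D20+ TGF-β and 22.5, 21.7 and 22.1 cpm at D1+ TGF-β, so that replicate 3 was close to the early libraries, and without it 12 genes were called. Without TGF-β 5 rose, with a median of 0.90, and the difference of the time courses was called for 0 of 13 in edgeR's test. Without D20+ TGF-β replicate 3 that test called the difference for TNFAIP2 (adjusted p = 0.00242) and CCL2 (adjusted p = 0.00302), higher under TGF-β. The list as a whole was not recounted for it. Of 18 genes of the IL-6 family and its STAT3 and SOCS mediators 8 rose and 2 fell. The rises were 5 without D1+ TGF-β replicate 2, and the falls 0 without D1+ TGF-β replicate 2 and 1 without D1+ TGF-β replicate 3 or D20+ TGF-β replicate 3. PIM1, a kinase raised by STAT factors, was at 6.62, 7.09 and 6.87 cpm at D1+ TGF-β and 20.9, 19.3 and 16.7 cpm at D20+ TGF-β (1.47, SE 0.11, adjusted p = 7.41e-07), and CEBPD, a C/EBP transcription factor gene, was at 10.4, 8.73 and 11.1 cpm at D1+ TGF-β and 87.5, 77.7 and 32.9 cpm at D20+ TGF-β (2.74, SE 0.35, adjusted p = 3.60e-05, and 3.06 without D20+ TGF-β replicate 3).

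Of 21 interferon-stimulated genes that passed the filter, of 44 listed, 13 rose and 3 fell, with a median of 0.57. PARP9, which aids interferon signalling, was at 11.2, 10.4 and 9.84 cpm at D1+ TGF-β and 21.1, 25.1 and 22.6 cpm at D20+ TGF-β (1.12, SE 0.09, adjusted p = 1.74e-06), and IFIT1, which binds viral RNA, had the largest rise (2.64, adjusted p = 4.91e-06). GBP1, an interferon-induced GTPase, was at 61.7, 73.3 and 59.8 cpm at D1+ TGF-β and 20.3, 21.6 and 26.4 cpm at D20+ TGF-β (−1.53, SE 0.14, adjusted p = 3.18e-06), with GBP3 (−0.38) and DDX58 (−0.34) the other falls. Without TGF-β 18 rose and 0 fell, with a median of 0.83, and the difference was called lower under TGF-β for 5, GBP1, GBP3, DDX58, SAMD9L and TRIM22. Of 16 MHC class I genes 3 rose and 0 fell, with 1 fall without D1 replicate 2, PSMB8 (0.56, adjusted p = 8.48e-05) and HLA-E (0.53, adjusted p = 1.24e-04) with the smallest p. The 18.8% that rose is near the 17.2% of all genes, and without TGF-β 11 rose. HLA genes are near copies of each other, and how reads were split among them is not given in the sources used here. Of 10 complement genes 4 rose, C1R (1.38), C1S (0.91) and CD55 (0.72) among them, and 2 fell, A2M and SERPING1, the C1 inhibitor (−1.42). Without TGF-β 7 of these 10 rose and 0 fell, A2M from 188, 264 and 112 cpm to 456, 524 and 484 cpm.

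Of 32 PDGF, FGF, HGF, VEGF and EGF genes 6 rose and 8 fell, and the rises were 3 without D1+ TGF-β replicate 1 or 2 or D20+ TGF-β replicate 1 or 2. PDGFRA, a receptor that PDGFs bind (1.41, adjusted p = 2.36e-06), and HGF, hepatocyte growth factor (1.25, adjusted p = 3.15e-05), rose, and HBEGF and FGF1 (−1.76) fell. HBEGF was at 20.8, 21.3 and 18.1 cpm at D1+ TGF-β and 4.34, 3.49 and 3.82 cpm at D20+ TGF-β (−2.35, SE 0.20, adjusted p = 2.30e-06). Of 14 genes of the IGF axis 8 rose and 1 fell, IGFBP3 (−1.01), with IRS2, an adaptor of the insulin receptor, at 26.003, 27.8 and 24.9 cpm at D1+ TGF-β and 47.9, 50.7 and 50.6 cpm at D20+ TGF-β (0.92, SE 0.09, adjusted p = 8.08e-06), and STC2, stanniocalcin (0.78, adjusted p = 9.56e-06). Of 17 Wnt genes 4 rose and 4 fell, DKK1, a secreted Wnt inhibitor, at 65.01, 70.4 and 62.6 cpm at D1+ TGF-β and 16.98, 16.6 and 26.96 cpm at D20+ TGF-β (−1.72, SE 0.16, adjusted p = 3.95e-06), and WNT5B at 125, 132 and 130.1 cpm at D1+ TGF-β and 51.1, 56.6 and 69.5 cpm at D20+ TGF-β (−1.13, SE 0.13, adjusted p = 2.38e-05). Of 8 Notch genes NOTCH3 (−1.01, adjusted p = 1.18e-04) and NOTCH2 (−0.43, adjusted p = 0.0083) fell and 0 rose, NOTCH2 being lost without D1 replicate 3 or D1+ TGF-β replicate 1, 2 or 3 or D20 replicate 1, 2 or 3 or D20+ TGF-β replicate 1 or 2, and 1 rise appeared without D1 replicate 1, 2 or 3 or D20+ TGF-β replicate 3. Of 18 semaphorins and their receptors 6 rose and 1 fell, SEMA7A. The rises were 2 without D1+ TGF-β replicate 3 and 3 without D1+ TGF-β replicate 2 or D20 replicate 2 or 3 or D20+ TGF-β replicate 1 or 2, the falls 2 without D1 replicate 2 or 3 or D20+ TGF-β replicate 3, and SEMA6D had the smallest p among the rises (1.59, adjusted p = 6.65e-05).

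Of 19 receptors and regulators of airway contraction 11 rose and 2 fell, RGS4 and F2RL1 (−0.70), with a median of 0.68. EDNRA, the endothelin receptor A, was at 10.5, 9.75 and 9.24 cpm at D1+ TGF-β and 35.6, 34.6 and 23.8 cpm at D20+ TGF-β (1.68, SE 0.21, adjusted p = 3.58e-05), BDKRB2, a bradykinin receptor gene, rose (2.31, adjusted p = 9.99e-05), and RGS2, a relative of RGS4, rose (2.65, adjusted p = 1.64e-04). Without TGF-β the same list had 11 rises and 2 falls, with a median of 0.53. Of 12 prostanoid genes 5 rose and 1 fell, PTGES3 (−0.50, adjusted p = 2.96e-04). The rises were 3 without D1+ TGF-β replicate 2 or D20+ TGF-β replicate 1 or 2 and the falls 2 without D1 replicate 2, and AKR1C2, a ketosteroid reductase gene with near copies in the same family, had the smallest p (1.99, adjusted p = 2.79e-04). Of 10 genes on the list of the glucocorticoid receptor and its targets 4 rose and 2 fell, the rises being 2 without D1+ TGF-β replicate 2. GLUL, glutamine synthetase (1.02, adjusted p = 1.72e-06), and ERRFI1, an inhibitor of the EGF receptor (−1.02, adjusted p = 3.09e-06), had the smallest p. Of 5 potassium channel genes tested 2 rose and 3 fell, KCNH1, a voltage-gated channel, at 29.9, 29.7 and 28.8 cpm at D1+ TGF-β and 10.2, 11.8 and 11.8 cpm at D20+ TGF-β (−1.40, SE 0.14, adjusted p = 7.44e-06), and KCNMA1, the large-conductance channel (−0.66, adjusted p = 3.30e-05). Of 11 clock genes NFIL3 rose (0.72, adjusted p = 8.18e-06) and CRY1 (−0.73, adjusted p = 3.61e-05) and BHLHE40 (−0.45) fell, the rises being 3 without D1 replicate 2 and the falls 1 without D1+ TGF-β replicate 3 or D20+ TGF-β replicate 1. Of 16 AP-1 and immediate early genes 2 rose and 3 fell, JUND at 53.7, 61.3 and 58.9 cpm at D1+ TGF-β and 118, 119 and 108 cpm at D20+ TGF-β (0.98, SE 0.10, adjusted p = 7.31e-06) and FOSL1 at 124, 125 and 131 cpm at D1+ TGF-β and 70.6, 58.2 and 75.05 cpm at D20+ TGF-β (−0.90, SE 0.11, adjusted p = 3.92e-05), the rises being 7 without D20+ TGF-β replicate 3 and the falls 5 without D1 replicate 2.

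Of 21 transcription factors of mesenchymal transition and lung mesenchyme 10 rose and 4 fell, the falls being 1 without D20+ TGF-β replicate 1 and 2 without D1+ TGF-β replicate 2 or D20+ TGF-β replicate 2. FOXF1, a factor of lung mesenchyme, was at 115, 117 and 118 cpm at D1+ TGF-β and 251, 260.3 and 199 cpm at D20+ TGF-β (1.02, SE 0.12, adjusted p = 1.57e-05), and TBX5 at 22.7, 21.7 and 24.4 cpm at D1+ TGF-β and 51.6, 55.7 and 43.02 cpm at D20+ TGF-β (1.13, SE 0.13, adjusted p = 2.14e-05). Without TGF-β FOXF1 had means of 217 and 334 cpm at D1 and D20 and TBX5 of 41.96 and 62.1 cpm, above those with TGF-β on both days. On this list 9 members rose and 2 fell without TGF-β. The difference of the time courses was called higher under TGF-β for 1 member and lower for 2. TCF21, another factor of that tissue (2.44, adjusted p = 5.61e-04), TWIST1 (0.91, adjusted p = 5.47e-05) and SNAI2 (0.68, adjusted p = 1.77e-04) rose too, while ZEB1 was not called (−0.25, adjusted p = 0.0356). Of 14 cadherins, catenins and desmosomal genes 2 rose and 4 fell, CDH2, N-cadherin, at 178, 193 and 159.9 cpm at D1+ TGF-β and 84.9, 84.1 and 109 cpm at D20+ TGF-β (−0.94, SE 0.12, adjusted p = 3.36e-05), and CDH13 (−0.84, adjusted p = 1.59e-05). VIM, vimentin, was at 7295, 7378 and 7096 cpm at D1+ TGF-β and 5849.6, 5852 and 7874 cpm at D20+ TGF-β and was not called (−0.15, SE 0.11, adjusted p = 0.275), though without D20+ TGF-β replicate 3 it was called lower (−0.31).

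Of 29 glycolytic and glucose sensing genes 10 fell and 2 rose. The falls were 5 without D1+ TGF-β replicate 1 or 3 or D20+ TGF-β replicate 2 and 6 without D1+ TGF-β replicate 2, and the rises 1 without D1+ TGF-β replicate 1, 2 or 3 or D20+ TGF-β replicate 2 or 3. HK1, hexokinase, was at 208, 206 and 203 cpm at D1+ TGF-β and 142, 144 and 157 cpm at D20+ TGF-β (−0.48, SE 0.07, adjusted p = 6.85e-05), and PFKFB2, a regulator of glycolysis, rose (1.06, adjusted p = 5.13e-05). Of 49 nuclear genes of oxidative phosphorylation 6 fell (12.2%, against 17.7% of all genes) and 0 rose, ATP5B (−0.34, adjusted p = 7.39e-04) and SDHB (−0.50, adjusted p = 0.00119) with the smallest p, and the count was 2 without D1+ TGF-β replicate 1 or 2 or D20+ TGF-β replicate 2, 3 without D1+ TGF-β replicate 3 or D20+ TGF-β replicate 1 and 10 without D1 replicate 2. Of the 13 protein genes of the mitochondrial genome 0 were called in edgeR's test, with 1 fall without D1 replicate 2 or D1+ TGF-β replicate 3. Of 30 antioxidant genes 6 rose and 7 fell, PRDX1, a peroxiredoxin, at 529, 526 and 540.1 cpm at D1+ TGF-β and 371, 354 and 397 cpm at D20+ TGF-β (−0.51, SE 0.07, adjusted p = 6.55e-05), and SRXN1 (−0.77, adjusted p = 7.73e-06), whose exons overlap another transcript of the same strand over 90.7% of their length. Of 41 genes of the ATF4 and amino acid response 6 rose and 5 fell, STC2 and WARS, tryptophanyl-tRNA synthetase (0.84, adjusted p = 1.05e-05), with the smallest p, and the falls were 8 without D20+ TGF-β replicate 3. Of 43 endoplasmic reticulum genes 9 rose and 15 fell. The rises were 4 without D1+ TGF-β replicate 1 or D20+ TGF-β replicate 1 and 5 without D1+ TGF-β replicate 2, and the falls 9 without D1+ TGF-β replicate 2. SSR3, of the translocon, was at 872, 957 and 845 cpm at D1+ TGF-β and 456, 449.9 and 574 cpm at D20+ TGF-β (−0.85, SE 0.11, adjusted p = 3.75e-05), and KDELR3, which returns escaped residents (−0.57, adjusted p = 2.49e-05), and the COPII coat genes SEC23A (−0.42) and SEC24D (−0.44) fell, while the chaperone genes HSPA5 (0.47) and DNAJB9 (0.64) rose.

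In 14 of the 50 lists neither the share that rose nor the share that fell was past 1.5 times that of all genes, namely TGF-β ligands and receptors, BMP and activin, collagen enzymes, Wnt, Notch, PDGF to EGF signals, AP-1, MHC class I, clock, nuclear and mitochondrial oxidative phosphorylation, antioxidant, ATF4 and ribosomal protein genes, and their counts are no result about the list.

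**Figure D3:**
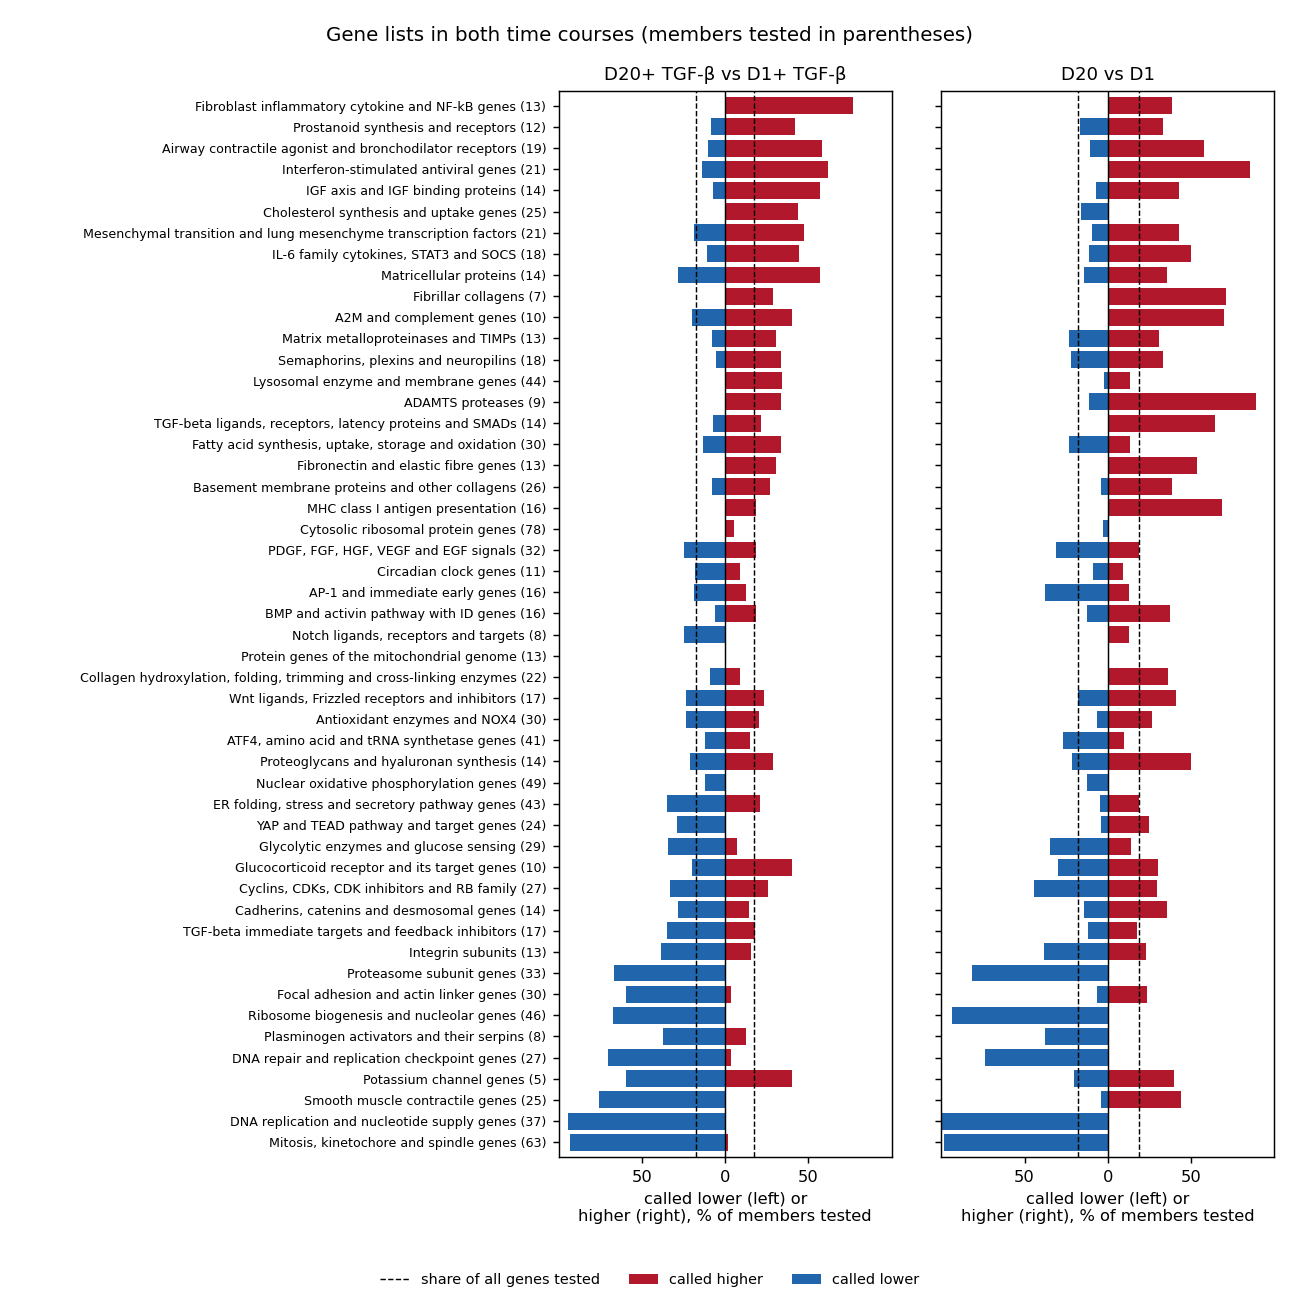
Share of the tested members of each of the 50 gene lists called higher (red, to the right) or lower (blue, to the left), in % of members tested, over time with TGF-β (left panel) and without it (right panel), ordered by the median change under TGF-β, with dashed lines for the share of all genes tested (17.2% higher and 17.7% lower with TGF-β, 18.9% and 17.6% without). Contractile and focal adhesion genes point down with TGF-β (19 of 25 and 18 of 30 fell), and cholesterol genes point up with it (11 of 25) and not without it (0 of 25).

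The same days without TGF-β share no library with the comparison, so both time courses can be set side by side. From D1 to D20 3457 genes were called, 36.4% of those tested, 1789 higher and 1668 lower, and with no composition factor the split was 1389 and 2112. Of the 1630 genes that rose under TGF-β 857 (52.6%) also rose without it, which is 47.9% of the rises without it, and of the 1677 that fell 955 (56.9%) also fell without it, which is 57.3% of those falls. Opposite calls were made for 114 genes, 32 that rose with TGF-β and fell without it and 82 that fell with it and rose without it. The difference of the time courses was called for 985 genes, 10.4% of those tested, 428 with the higher change under TGF-β (4.51%) and 557 with the lower (5.87%). With no composition factor the split was 767 and 379, and the median of all genes in that difference was then 0.13 in place of 0.02.

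The 5 largest differences towards higher levels under TGF-β were those of FABP3, MMP1, FAM129A, COL15A1 and NPTX1. FABP3, a fatty acid carrier of muscle, was at 28.01, 22.1 and 25.5 cpm at D1+ TGF-β and 50.9, 53.9 and 79.6 cpm at D20+ TGF-β and without TGF-β at 30.9, 13.3 and 32.1 cpm at D1 and 7.27, 9.03 and 8.26 cpm at D20 (difference 2.91, SE 0.39, adjusted p = 2.40e-04). FAM129A, also named NIBAN1, was at 75.998, 76.7 and 84.5 cpm at D1+ TGF-β and 129, 135 and 250.5 cpm at D20+ TGF-β and without TGF-β at 75.3, 56.2 and 75.7 cpm at D1 and 26.5, 25.95 and 27.8 cpm at D20 (difference 2.48, SE 0.30, adjusted p = 1.08e-04). NPTX1, a secreted pentraxin, was at 32.1, 27.1 and 41.6 cpm at D1+ TGF-β and 137, 120.4 and 103 cpm at D20+ TGF-β and without TGF-β at 204, 154 and 195 cpm at D1 and 156, 137 and 134 cpm at D20 (difference 2.23, SE 0.21, adjusted p = 1.87e-05). FABP3 and FAM129A thus rose with TGF-β and fell without it, whereas NPTX1 was lowest at D1+ TGF-β and higher in all other libraries. The 5 largest towards lower levels were those of A2M, ITGB3, ADAMTS19, GPX3 and GBP1. ITGB3, the β3 integrin subunit of the vitronectin receptor (chr17:45331193-45391109, plus strand, GRCh37), was at 58.9, 67.1 and 62.3 cpm at D1+ TGF-β and 18.9, 18.7 and 13.96 cpm at D20+ TGF-β and without TGF-β at 15.04, 23.2 and 11.3 cpm at D1 and 35.6, 41.1 and 46.8 cpm at D20 (difference −3.17, SE 0.28, adjusted p = 9.78e-06), and 33.2% of its exon length is shared with a transcript of the same strand. ADAMTS19 was at 13.6, 12.99 and 16.7 cpm at D1+ TGF-β and 16.4, 21.2 and 11.3 cpm at D20+ TGF-β, where it was not called (0.19, adjusted p = 0.491), and at 44.2, 26.4 and 33.96 cpm at D1 and 268, 282 and 290.5 cpm at D20 without TGF-β (difference −2.83, SE 0.28, adjusted p = 2.74e-05). GPX3, the secreted glutathione peroxidase, was at 8.86, 10.2 and 11.5 cpm at D1+ TGF-β and 8.46, 7.09 and 4.30 cpm at D20+ TGF-β, not called (−0.58, adjusted p = 0.0401), and at 18.99, 13.8 and 13.7 cpm at D1 and 62.6, 81.6 and 69.3 cpm at D20 without TGF-β (difference −2.79, SE 0.28, adjusted p = 2.85e-05). For A2M the difference was −3.88, SE 0.41, adjusted p = 4.69e-05 and for GBP1 −2.67, SE 0.19, adjusted p = 2.43e-06. In ADAMTS19 and GPX3 the D20 libraries stood above all others, and the levels with TGF-β stayed low at both times.

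**Figure D4:**
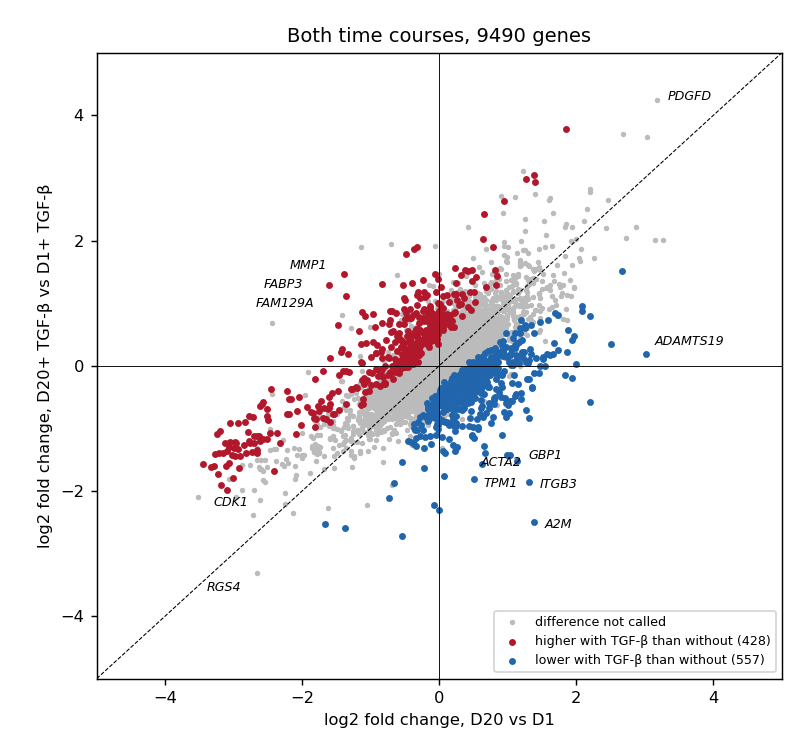
Log2 fold change of each of the 9490 genes tested, with TGF-β on the vertical and without it on the horizontal axis, with genes whose difference was called in red (428 higher with TGF-β) or blue (557 lower) and the dashed line marking equal change. The cluster of red points at the lower left holds mitosis genes such as CDK1 (−1.90 with and −3.19 without TGF-β), and the blue points below the axis hold ACTA2, TPM1, ITGB3 and A2M.

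**Figure D5:**
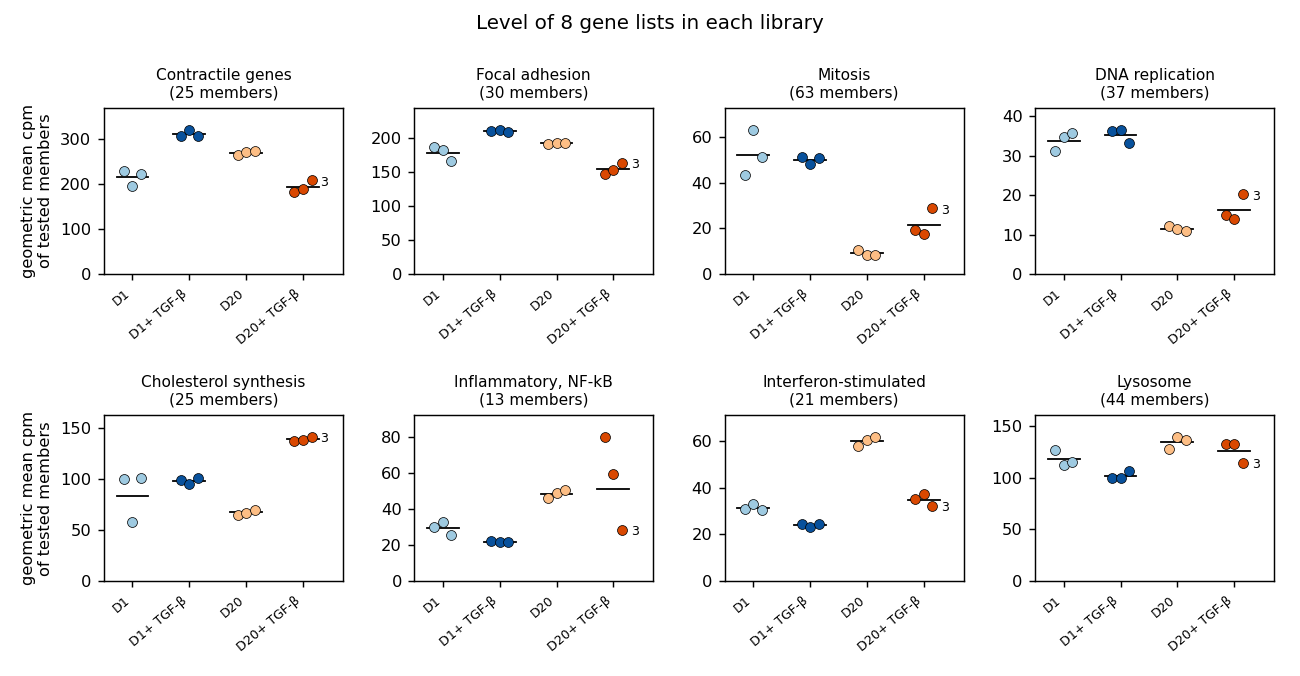
Geometric mean cpm of the tested members of 8 gene lists in each of the 12 libraries (points, in the order of replicates 1 to 3, linear axes from 0), with lines at the mean of the 3 libraries on the log scale and D20+ TGF-β replicate 3 marked. Contractile genes were highest at D1+ TGF-β (308, 321 and 308 cpm) and cholesterol genes at D20+ TGF-β (138, 138 and 141 cpm). Of the D20+ TGF-β libraries, replicate 3 lay nearest to the D1+ TGF-β libraries in every panel except that of the cholesterol genes.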

How the data were processed

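RNA of 12 WI-38 flasks was sequenced with a directional kit on 4 lanes per library. The authors trimmed reads with Trimmomatic after FastQC, aligned them to hg19 with Rsubread and deposited counts per gene and lane for 25702 genes, and log2 values (limma voom) for 9412 genes. The counting rule and its use of strand are not given in the sources used here. Coordinates are GRCh37 from GENCODE lifted annotation, and promoters are RefSeq on GRCh38.p14.

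Here the 48 lane columns were summed to 12 libraries of 8674488 to 18286197 counts, grouped by their titles. All were fitted in edgeR 4.0.16 (R 4.3.3) with TMM factors, 1 mean per group and the quasi-likelihood test, over 9490 genes with at least 10 cpm in 6 libraries, and p-values were adjusted by Benjamini-Hochberg over all of them. The threshold for a call was an adjusted p of 0.01. On simulated counts of these genes the test recovered 99% of changes of log2 1 and 100% of log2 2 in the simulated comparison of the treated groups, with 1 false call, and 92% and 99% in the simulated difference of the time courses, with 4 false calls. The simulation drew each library independently and changed 100 genes at each size, of 9490. It held no common parent flask and no library set off from its group, so these rates need not hold for the data. Replicate libraries differed by more than sampling noise, so none were merged.

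The members, the 50 gene lists, the 9 marker lists and the rule for named genes were chosen with earlier results of these data known. The rule takes the 10 largest called rises and falls without overlap of libraries, 2 called members of each list by p, the 5 largest differences of the time courses each way, and fixed genes such as ACTA2, VIM, SMAD3 and SMAD7, and some genes that meet it are not reported here. Other genes named were chosen after their values were seen. Alternatives were DESeq2 1.42.0, limma-voom and limma 3.58.1 on the deposited log2 values, RLE or no composition factors, other filters, the 6 libraries alone, a replicate block, thinned counts, other thresholds and each library left out.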

Additional observations from a re-analysis of the deposited data

Results flagged for a closer look

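For 50 named genes the time course with TGF-β differed from that without it by edgeR's test of the difference itself (quasi-likelihood test, adjusted p under 0.01, 3 libraries per group). The rule took 117 genes, of which some are not reported here, and the difference was called for 10.4% of all genes tested. Since the rule chose genes by the size of their changes, and some by this difference, the count of 50 is no result about them. Values are the log2 fold change of D20+ TGF-β over D1+ TGF-β minus that of D20 over D1. The change was lower with TGF-β for 25 genes. Those with differences past a log2 of 1 were A2M (−3.88), ITGB3 (−3.17), ADAMTS19 (−2.83), GPX3 (−2.79), GBP1 (−2.67), TPM1 (−2.33), LZTS1 (−2.30), ADAM12 (−2.15), KCNH1 (−2.07), ACTA2 (−1.94), SMURF2 (−1.56), XYLT1 (−1.38), SEMA7A (−1.21) and WNT5B (−1.18). Smaller ones were NOTCH3 (−0.99), PDLIM5 (−0.94), CSRP1 (−0.93), CYR61 (−0.90), PODXL (−0.86), WARS (−0.85), ERRFI1 (−0.70), PRDX1 (−0.68), VASP (−0.67), KDELR3 (−0.58) and KCNMA1 (−0.49).

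The change was higher with TGF-β for 25 genes. Those past a log2 of 1 were FABP3 (2.91), MMP1 (2.85), FAM129A (2.48), COL15A1 (2.27), NPTX1 (2.23), RASL12 (1.92), FADS1 (1.82), ALDH1A3 (1.71), FAM43A (1.67), MXRA5 (1.54), CTSK (1.52), INSIG1 (1.46), ESPL1 (1.35), LSS (1.32), SREBF1 (1.22), SPOCK1 (1.14) and ACVRL1 (1.12). Smaller ones were JUND (0.97), IRS2 (0.90), FOSL1 (0.69), MMP2 (0.68), PCOLCE (0.63), NFIL3 (0.62), RPL41 (0.53) and GLUL (0.50). Of the 50 calls 13 were lost in 1 or more of 21 alternatives, PODXL in 18, KCNMA1 in 16, RPL41 in 13, MXRA5 in 12, ACVRL1 in 11, LSS in 11, RASL12 in 10, FOSL1 in 10, ALDH1A3 in 9, MMP2 in 9, GLUL in 7, NOTCH3 in 5 and LZTS1 in 1. TPM1, ACTA2 and CSRP1, genes of the contractile apparatus, are in the first group, and INSIG1, LSS, SREBF1 and FADS1, genes of lipid synthesis, in the second.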

How the results depend on the processing

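Between D1+ TGF-β and D20+ TGF-β 2275 to 4018 genes were called when 1 library was left out, and with a log2 change past 1 448 to 660. For D20 vs D1 the range was 2470 to 4003 and for the difference of the time courses 549 to 1731. Without D1 replicate 2 the difference was called for 1731 genes, without D1+ TGF-β replicate 1 or 2 for 632 and 549 and without D20 replicate 2 or 3 for 623 and 561. At an adjusted p of 0.05 it was called for 2040. Genes past a log2 change of 1 numbered 1221 with no filter and 1117 with filterByExpr, where more genes were tested, and 77 when the fold of 2 itself was tested. With no composition factor the median of all genes in the difference moved to 0.13. Replicate numbers are not known to pair flasks, and all same-numbered correlations were below 0 (−0.06, −0.05 and −0.13 with TGF-β). Deviations were taken from means of 3 libraries, and a pair of different numbers reached −0.09, so these correlations cannot decide on pairing. With a replicate block the counts were 3086, 513, 3229 and 831. Of 234 results for single named genes 163 were called, of which 147 kept their call in each alternative, and no direction of a called gene was reversed. Day cannot be told apart from passage and time since seeding, and at 3 flasks per group from shared parents small changes may not be detectable.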

Other observations

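Genes below 10 cpm in most libraries were tested with edgeR's looser filter (filterByExpr), which added 4278 genes, of which 637 were called higher and 271 lower (21.2% in all). The choice of these genes for mention was made after their values were seen. ELN, elastin, was at 55.4, 64.9 and 44.1 cpm at D1+ TGF-β and 6.86, 7.05 and 4.38 cpm at D20+ TGF-β (−3.16, SE 0.28, adjusted p = 2.09e-06). NOX4, an NADPH oxidase raised by TGF-β, was at 23.1, 23.9 and 21.8 cpm at D1+ TGF-β and 5.92, 5.56 and 7.08 cpm at D20+ TGF-β (−1.89, SE 0.15, adjusted p = 9.12e-07). HAS2, a hyaluronan synthase, was at 25.6, 29.2 and 20.9 cpm at D1+ TGF-β and 3.04, 3.97 and 5.12 cpm at D20+ TGF-β (−2.68, SE 0.19, adjusted p = 3.87e-07). These early levels did not overlap the late ones, which is no support, since the genes were picked by their values. The share without overlap among all 4278 genes added was not counted. COL10A1, a short-chain collagen, was at 7.54, 8.90 and 5.33 cpm at D1+ TGF-β and 40.2, 43.8 and 49.8 cpm at D20+ TGF-β (2.58, SE 0.19, adjusted p = 3.84e-07).

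Of 11 inflammatory genes added by that filter 6 rose and 0 fell, beside 14.9% and 6.33% of all 4278 genes it added. CXCL8, interleukin 8, was at 4.005, 2.83 and 2.96 cpm at D1+ TGF-β and 192, 68.6 and 3.82 cpm at D20+ TGF-β (4.81, SE 0.92, adjusted p = 7.71e-04). CXCL1, another neutrophil chemokine, was at 0.236, 0.340 and 0.237 cpm at D1+ TGF-β and 93.2, 32.5 and 1.58 cpm at D20+ TGF-β (7.19, SE 1.26, adjusted p = 3.82e-04). The early levels of CXCL1 were near the floor, so that the size of its fold change is uncertain. Replicate 3 was the lowest late library for both chemokines, and without it, in a fit added after the data were seen, the log2 fold changes were 5.36 and 7.74. Of 6 replication genes added 6 fell, and of 10 DNA repair genes 9 fell. Of 16 interferon-stimulated genes 9 rose. A gene of low level that passes the filter only where it is high can change in 1 direction only. Which of these members did so was not examined, and their counts add no support to those of the main filter.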
